A study of Mus musculus with 8 samples.

Results

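The genes described here encode parts of the sperm head and tail: the transition proteins Tnp1 and Tnp2, the protamines Prm1 and Prm2, the acrosomal proteins Acr and Acrv1, and the tail proteins Odf1, Odf2 and Akap4. They were taken by name, as all probes whose gene name on the array equals one of the 9 symbols. This gave 9 genes of the 27962 gene names on the array, read by 15 of its 41174 probes. Each was read on 8 one-colour Agilent arrays for its processed signal (background-subtracted Cy3 fluorescence in arbitrary units) and for the scanner software's flag that a spot lay well above background. RNA came from postnatal day 14 testes of male mice of a C57BL/6 129SV mixed strain, labelled as juvenile testicular germ cells that express Dazl-GFP-V5, so all 4 groups carry the fusion and no group lacks it. Dazl is an RNA-binding protein of germ cells. The labels do not name the promoter of the fusion. The groups, each of 2 arrays, were input (total RNA with no precipitation), IgG (a mock precipitate with normal mouse IgG), V5 (a precipitate with anti-V5) and GFP (a precipitate with anti-GFP), all native precipitates made without UV crosslinking.

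Late in sperm formation most histones of the haploid nucleus are removed, transition proteins take their place, and protamines then replace these and compact the DNA. The acrosome is a secretory cap over the nucleus that holds the protease acrosin, encoded by Acr, and other proteins used in fertilisation. The tail is stiffened by outer dense fibres and by a fibrous sheath, whose main scaffold is Akap4. Most of these genes are known for transcription in round spermatids and for storage of their messenger RNA until later steps. In the first wave of mouse spermatogenesis, testes of this age have reached meiosis and round spermatids come later, so these arrays read the genes before that stage. Not all were dim: 1 probe of Odf2 read 45459.8 and 45870.2 in input.

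The promoters of the 4 packaging genes are shown because these genes had the 4 lowest differences of GFP from IgG among the tested member genes and because haploid genes of this kind are known targets of the activator CREM, which binds cAMP response elements. RefSeq's promoter table (GRCm38.p6) held 7 of the 9 member genes in 11 entries; Acr and Odf1 were not matched. Each line gives the 120 bases before the start site, 5′ to 3′ on the gene's strand. Capitals mark TGANNTCA, a cAMP response element with any centre, and TATAA, each searched on both strands.
Tnp1 (chr1:73015900-73016019, minus strand): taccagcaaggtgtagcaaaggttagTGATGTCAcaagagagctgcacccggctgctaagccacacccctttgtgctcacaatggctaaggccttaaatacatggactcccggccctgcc
Tnp2 (chr16:10788656-10788775, minus strand): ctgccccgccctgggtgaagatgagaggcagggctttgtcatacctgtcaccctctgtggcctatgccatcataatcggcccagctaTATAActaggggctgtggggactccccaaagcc
Prm1 (chr16:10796824-10796943, minus strand): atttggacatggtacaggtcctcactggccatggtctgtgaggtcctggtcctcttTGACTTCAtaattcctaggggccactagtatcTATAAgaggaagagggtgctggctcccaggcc
Prm2 (chr16:10792106-10792225, minus strand): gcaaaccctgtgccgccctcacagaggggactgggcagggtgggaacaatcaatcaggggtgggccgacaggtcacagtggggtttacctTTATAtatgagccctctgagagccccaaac
The element with any centre lay in Tnp1 and Prm1, and among the other members in 1 of the entries of Akap4. It lay in 7.14% of the 32851 promoters of this length in the table. TATAA lay in Tnp2 and Prm1, and in Prm2 on the other strand, where it reads TTATA; 11.8% of the promoters held it. The perfect element TGACGTCA lay in no member and in 1.24% of the promoters. Tnp2, Prm3, Prm2 and Prm1 follow each other in this order among the genes of mouse chromosome 16. These matches are descriptions of letters and not sites shown to be bound.

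Per array, 57.2% to 62.3% of 43379 non-control spots lay well above background, 0 spots were saturated, and the 75th percentile of the signal, to which each array was scaled, lay between 857 and 1115. The lowest signal of a spot well above background was 21.5 to 30.5, so most packaging probes lay near the detection limit. The labels conflict in places: the design text has anti-PABP1 in place of the anti-GFP of the samples, and the descriptions given to input replicate 2 (RNA-IP) and V5 replicate 1 (total RNA) contradict their titles. The titles and the samples' antibodies were followed. Arrays of input and IgG lay on slide 1 and V5 and GFP arrays on slide 2, per the file headers, so that slide and group cannot be told apart where V5 or GFP is set against IgG or input. The comparisons of IgG with input and of V5 with GFP were each made on 1 slide. Nothing in the labels says that replicates came from different animals, and a p here reflects only the spread between these arrays, which may be technical. Germ cell genes were well above background on both input arrays, with 14 of 14 meiotic prophase markers on the array, and so were markers of other cells, with 17 of 17 of Sertoli cells and 7 of 7 of myoid cells. In such bulk RNA, fewer cells of a type and less RNA per cell cannot be told apart.

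Of the 15 member probes, 6 lay above background on all 8 arrays, a pattern of 53.5% of all probes, and 5 lay above it on no array, a pattern of 31.2%. The undetected genes were Acrv1, an acrosomal matrix protein, Odf1, the main outer dense fibre protein, and Akap4. Acrv1 read 6.7 to 27.2 over the 8 arrays, Akap4 read 5.1 to 21.6, and the probes of Odf1 read 6.5 to 10.9 and 5 to 6.8. These readings were not well above background, and no fold is given for them. The remaining 6 genes, with 9 probes that were detected on both arrays of some group, were tested. Of these, 2 probes, for Prm1 and Prm2, lay above background on all 4 input and IgG arrays and on no V5 or GFP array, a pattern of 0.58% of all probes, and 0 member probes had the reverse pattern (0.138% of all probes). A probe that was kept only through the groups where it is bright had to be dimmer elsewhere. Here this holds for Prm2, Tnp2 and 1 probe of Prm1. Counts over the kept members therefore describe them and support nothing further.

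**Figure D1:**
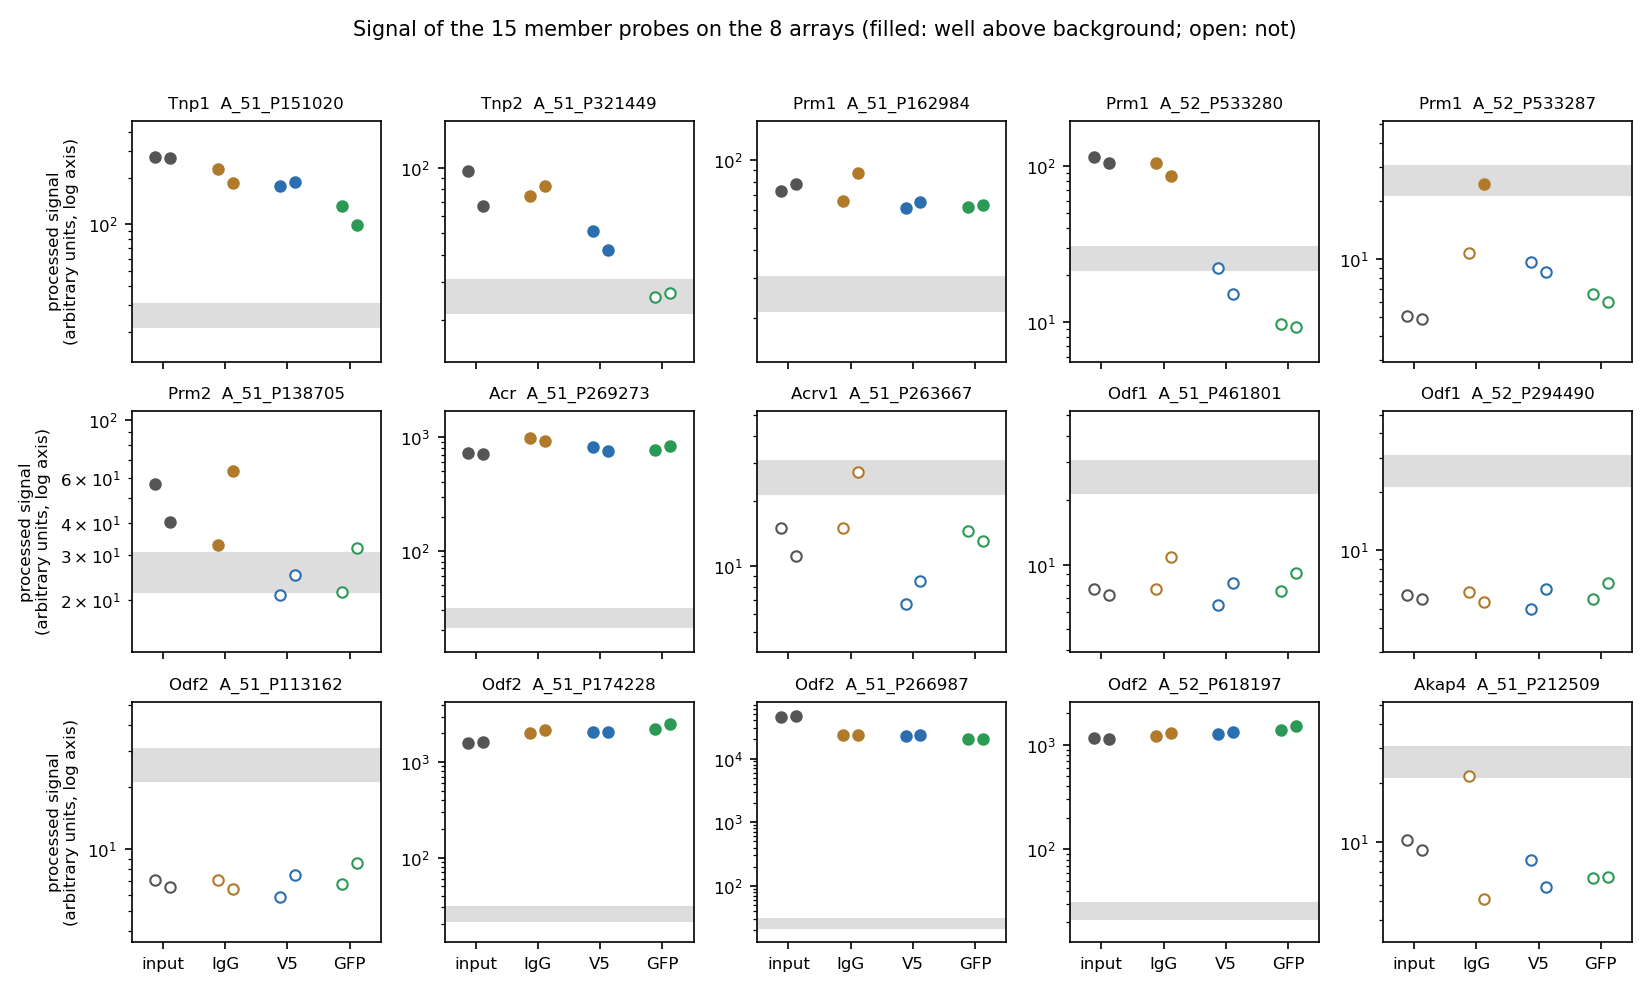
Processed signal (arbitrary units, log axis) of the 15 member probes on the 8 arrays, by group, with 1 point per array; filled points lay well above background and open points did not, and the grey band spans the lowest detected signals of the arrays (21.5 to 30.5). Acrv1, Akap4, both probes of Odf1 and 1 probe of Odf2 are open on every array, Prm2 and 1 probe of Prm1 are open in V5 and GFP, and Tnp2 is open in GFP.

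Tnp1, a transition protein, was detected on every array. Its signal was 274.8 and 270.7 in input, 228.8 and 186.5 in IgG, 176.1 and 189.6 in V5, and 131.0 and 99.8 in GFP. Both GFP arrays lay below all others, while V5 and IgG overlapped before scaling and not after it. On the scaled log2 scale, GFP lay -1.15 ± 0.16 (SE, n = 2 arrays per group) from IgG, or 2.22-fold lower (adjusted p = 0.000885, limma). V5 lay -0.40 ± 0.16 from IgG and did not pass the threshold (adjusted p = 0.0665), and it passed, still lower, when only probes detected on all arrays were fitted (adjusted p = 0.0412). Against input, Tnp1 was 2.57-fold lower in GFP (adjusted p = 0.000269) and 1.52-fold lower in V5 (-0.61 ± 0.16, adjusted p = 0.0114). The V5 call against input was lost without V5 replicate 1 (adjusted p = 0.0542), without input replicate 2 (0.0526) and with arrays scaled to the median (0.105).

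Tnp2, the other transition protein, had a signal of 96.3 and 66.5 in input, 74.2 and 82.6 in IgG, 51.5 and 41.8 in V5, and 25.6 and 26.7 in GFP, where it was not well above background. Input and IgG overlapped, V5 lay below both and GFP below V5. V5 was 1.97-fold lower than IgG (-0.98 ± 0.19, adjusted p = 0.0071, limma). GFP was at least 3.45-fold lower than IgG (adjusted p = 0.00035) and at least 3.08-fold lower than input (adjusted p = 0.000205). Such a bound compares the brighter group with, on each array of the dimmer group, the higher of the probe's own signal and the lowest detected signal. Against input V5 was 1.76-fold lower (-0.82 ± 0.19, adjusted p = 0.00683), a call lost with quantile normalization (-0.46, adjusted p = 0.0747).

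Prm1, a protamine that compacts sperm DNA, had 3 probes that gave different answers. The probe A_52_P533280 read 114.6 and 105.5 in input and 104.9 and 86.9 in IgG. It read 22.2 and 15.1 in V5 and 9.7 and 9.3 in GFP, none of them well above background. After scaling, input and IgG overlapped and both V5 and GFP lay far below. It was at least 4.52-fold lower in V5 than in IgG (fitted -2.61 ± 0.19, adjusted p = 0.000907 over all kept probes) and at least 4.2-fold lower in GFP (adjusted p = 9.07e-05). Against input it was at least 4.56-fold lower in V5 and at least 4.24-fold lower in GFP.

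The probe A_51_P162984 stands for Prm1 among genes because its mean scaled signal over all 8 arrays was the highest. It read 73.0 and 78.5 in input, 66.1 and 87.2 in IgG, 61.3 and 65.4 in V5, and 62.1 and 63.3 in GFP. It was detected throughout. In input and IgG A_52_P533280 was brighter (means of 110.1 and 95.9 against 75.8 and 76.7), so the choice rests on V5 and GFP. Gene counts, packaging medians and packaging sums use A_51_P162984. Its groups were close: V5 lay -0.48 ± 0.16 from IgG (1.4-fold lower, adjusted p = 0.0364) and GFP -0.58 ± 0.16 (1.49-fold lower, adjusted p = 0.0142). Both calls were lost with the arrays scaled to the median (-0.22 and -0.28), to spike-in RNA (-0.12 and -0.11) and by quantiles (-0.21 and -0.27). Leaving out 1 array lost the V5 call in 3 of 4 fits, without IgG replicate 2 or either V5 array (range -0.73 to -0.24), and the GFP call without GFP replicate 2 (adjusted p = 0.0545). Against input neither passed (adjusted p = 0.135 for V5 and 0.0611 for GFP). The third probe, A_52_P533287, was above background on 1 array only, IgG replicate 2 (24.5), and read 4.9 to 10.7 on the others. The 2 tested probes correlated at Pearson r = 0.806 over the 8 arrays. Which of the probes follows the Prm1 transcript was not tested, since the files used here hold no probe sequences.

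Prm2, the other protamine, read 56.7 and 40.2 in input, 32.7 and 63.7 in IgG, 21.0 and 25.1 in V5, and 21.5 and 31.9 in GFP. It was above background on every input and IgG array and on no V5 or GFP array, and its IgG arrays differed from each other almost as much as the groups did. It was at least 2.19-fold lower in V5 than in IgG (fitted -1.21 ± 0.35, adjusted p = 0.0265) and at least 1.96-fold lower in GFP (adjusted p = 0.0277). Scaled to the median, to spike-in RNA and by quantiles the V5 call was lost (adjusted p = 0.074, 0.0925 and 0.108), and so was the GFP call (0.0832, 0.164 and 0.148). Leaving out 1 array lost the V5 call in 3 of 4 fits, without IgG replicate 2 or either V5 array (range -1.74 to -0.69). It lost the GFP call in 2 of 4, without IgG replicate 2 or GFP replicate 1 (range -1.63 to -0.58).

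Among the acrosomal members only Acr was measured. Its signal was 718.0 and 710.9 in input, 989.0 and 928.7 in IgG, 814.4 and 750.5 in V5, and 763.6 and 839.2 in GFP. The IgG arrays were the highest, and V5, GFP and input overlapped after scaling. Acr was 1.53-fold higher in IgG than in input (0.61 ± 0.077, adjusted p = 0.000401) and lower than IgG in V5 (-0.52 ± 0.077, adjusted p = 0.00386) and in GFP (-0.56 ± 0.077, adjusted p = 0.00095). V5 and GFP lay 0.10 ± 0.077 and 0.05 ± 0.077 from input, which did not pass (adjusted p = 0.28 and 0.538). With the arrays scaled to the median both passed as higher than input (0.41, adjusted p = 0.00507, and 0.40, adjusted p = 0.00594), and scaled to spike-in RNA both passed as lower (-0.33, adjusted p = 0.00633, and -0.26, adjusted p = 0.0152). Scaled to spike-in RNA, the difference of IgG from input was -0.17 and did not pass (adjusted p = 0.0668), and V5 lay -0.15 from IgG (adjusted p = 0.152).

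Odf2, an outer dense fibre protein that is also a centrosomal protein of other cells, had 4 probes with different patterns. The probe A_51_P266987 (transcript NM_013615) read 45459.8 and 45870.2 in input, 23320.9 and 23859.0 in IgG, 23007.4 and 23073.7 in V5, and 20351.0 and 20480.1 in GFP. Input lay above every precipitate with no overlap. This probe was 1.7-fold lower in IgG than in input (-0.76 ± 0.073, adjusted p = 0.000115), 2.03-fold lower in V5 (-1.02 ± 0.073, adjusted p = 4.57e-05) and 2.41-fold lower in GFP (-1.27 ± 0.073, adjusted p = 1.65e-05). Against IgG it was lower in V5 (-0.26 ± 0.073, adjusted p = 0.025) and in GFP (-0.51 ± 0.073, adjusted p = 0.0011). The V5 call was lost in 3 of the 4 fits that left out an array, without IgG replicate 2 or either V5 array (range -0.31 to -0.20). It turned to 0.01 with the arrays scaled to the median and to 0.11 scaled to spike-in RNA, where neither passed, and GFP was then at -0.22 (adjusted p = 0.0353) and -0.04 (adjusted p = 0.716).

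The probes A_51_P174228 and A_52_P618197, both named for the clone sequence BC057001, ran the other way. The first read 1591.4 and 1617.1 in input, 2008.4 and 2162.4 in IgG, 2057.2 and 2069.1 in V5, and 2202.6 and 2518.4 in GFP. Both input arrays lay below all others. It was higher than input in IgG (0.57 ± 0.091, adjusted p = 0.00134), V5 (0.33 ± 0.091, adjusted p = 0.0154) and GFP (0.44 ± 0.091, adjusted p = 0.00427), and scaled to spike-in RNA these became -0.22, -0.09 and 0.13. The second read 1164.8 and 1138.5 in input, 1206.7 and 1283.1 in IgG, 1264.7 and 1327.1 in V5, and 1381.2 and 1515.3 in GFP, and lay 0.30 ± 0.079 from input in IgG (adjusted p = 0.0126) and 0.22 ± 0.079 in GFP (adjusted p = 0.0419). The latter call was lost in all 4 fits that left out an array. These 2 probes correlated at Pearson r = 0.976 over the 8 arrays and at -0.726 and -0.619 with A_51_P266987. The fourth probe, A_51_P113162, read 5.9 to 8.6 and was above background on no array. Whether the probes read different transcripts of Odf2 was not tested.

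**Figure D2:**
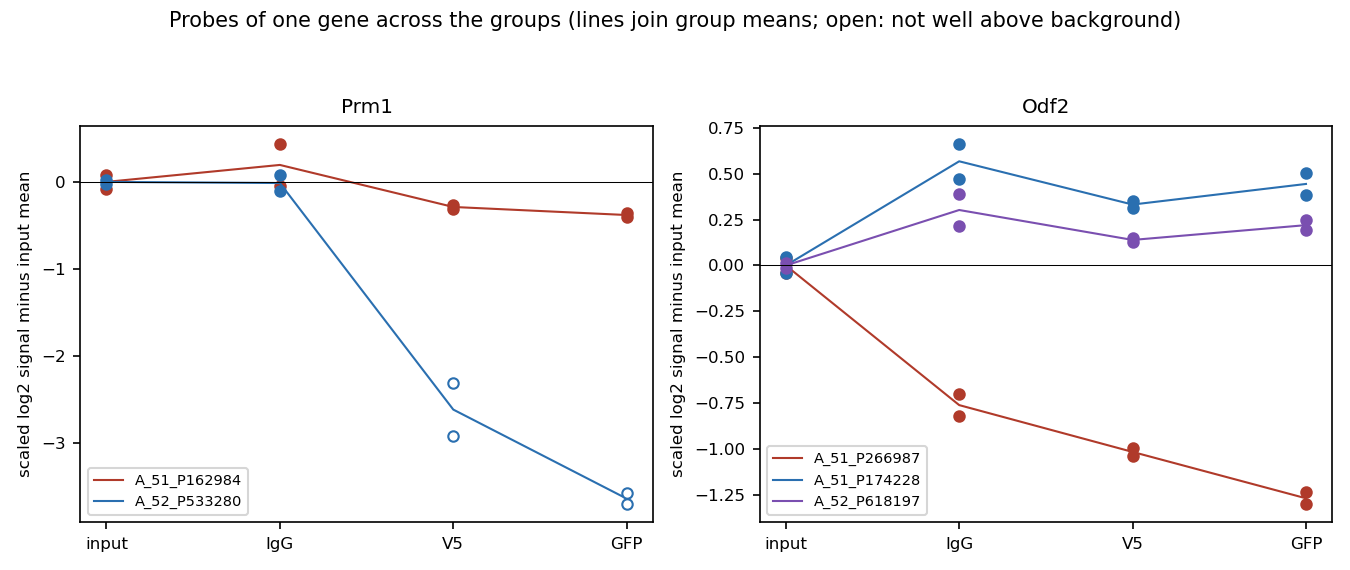
Scaled log2 signal of the tested probes of Prm1 (left, 2 probes) and Odf2 (right, 3 probes), each as the difference from its input mean, with 1 point per array and lines through group means; open points were not well above background. A_52_P533280 of Prm1 is open in V5 and GFP, at least 4.56-fold and 4.24-fold below input, while A_51_P162984 lies at -0.29 and -0.38 there, and the probes of Odf2 go opposite ways from input.

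Set together for V5 against IgG, 5 of the 6 tested member genes were lower, 1 did not pass (Tnp1) and 0 were higher; 57.1% of all 17580 genes passed, 16.7% higher and 40.4% lower. Of the 9 tested probes 6 were lower and 0 higher, where 53.4% of all 25597 probes passed, 17.8% higher and 35.6% lower. The median log2 difference of the 6 was -0.50 and that of all genes -0.21. Under scaling to the median the median of all genes was 0.06, to spike-in RNA 0.16 and by quantiles -0.11, so a direction against IgG is relative to the scaling. The median of the 4 packaging genes was -0.73, and -0.47, -0.36 and -0.49 under these scalings. Scaling to the median or to spike-in RNA shifts all genes of an array alike. The distance from the median of all genes could therefore change only with quantile normalization. Under each of these scalings only 1 of the 4 genes, Tnp2, passed, where 3 had done so. Of all 17580 genes 6420, 7164 and 8998 passed under them. For the probe A_52_P533280 of Prm1 the adjusted p of V5 against IgG was 0.000438, 0.000453 and 0.000956 under these scalings. This probe was kept only through input and IgG, where it is bright, so these values describe it and support nothing further. Another background correction, normexp, left 0 packaging genes past the threshold against IgG or input in V5 or GFP. Of all genes it left 0 in V5 against IgG, 3219 in GFP against IgG, 5250 in V5 against input and 5697 in GFP against input. Under normexp Tnp2 was at -0.10 in V5 against IgG and A_52_P533280 at -0.51. Normexp and local subtraction added 50 to every signal, which shrinks log2 differences of dim probes. The part of this constant in these values was not tested. With the local background subtracted, chosen after seeing the data, Tnp1 (adjusted p = 0.0143), Tnp2 (0.00268), Prm1 (0.0182) and Prm2 (0.006) were all lower in V5 than in IgG.

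For GFP against IgG, 6 of 6 tested member genes were lower, where 73.7% of all genes passed, 21.6% higher and 52.1% lower. Of the 9 probes 7 were lower and 0 higher, where 70.4% of all probes passed, 23.6% higher and 46.8% lower. The median of the 6 genes was -0.84, beside -0.33 for all genes. The packaging genes had a median of -1.13, and of -0.84, -0.66 and -0.85 under the scalings to the median, to spike-in RNA and by quantiles, where Tnp1 and Tnp2 were the 2 of 4 that passed. Of all 17580 genes 10306, 9046 and 12076 passed under these scalings. Both comparisons share the IgG arrays, and their members' values are therefore given side by side and not as 2 pieces of evidence.

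For IgG against input, within slide 1, 1 of 6 member genes was higher (Acr), 1 lower (Odf2) and 4 did not pass, where 73.3% of all genes passed, 43.9% higher and 29.3% lower. Of the 9 probes 3 were higher and 1 lower, where 73.2% of all probes passed, 40.2% higher and 33% lower. The 4 packaging genes lay between -0.21 (Tnp1) and 0.19 (Prm1), with adjusted p from 0.26 to 0.763, and their median of 0.14 compares with 0.22 for all genes. Scaled to spike-in RNA, which moved the median of all genes to -0.57, the packaging median was -0.65 and 3 of the 4 were lower. Under that scaling 13328 of all 17580 genes passed, only 2411 of them higher, so most calls were lower there. For V5 against input 0 of 6 member genes were higher and 4 lower, where 73.2% of all genes passed (37.7% higher and 35.6% lower). Of the 9 probes 1 was higher and 5 lower, where 72.4% of all probes passed (34.8% higher and 37.6% lower). For GFP against input 0 were higher and 4 lower, where 75.3% passed (36.2% higher and 39.1% lower), and of the 9 probes 2 were higher and 5 lower, where 74.4% of all probes passed (34.5% higher and 39.9% lower).

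For V5 against GFP, within slide 2, 2 of 6 member genes were higher in V5 and 0 lower, where 14% of all genes passed, 6.8% higher and 7.19% lower. Of the 9 probes 3 passed as higher and 0 as lower, where 11.5% of all probes passed, 4.72% higher and 6.77% lower. For 1 of the 3, A_52_P533280 of Prm1, V5 and GFP were both not well above background, so its difference is not read. The member genes were Tnp1 (0.75 ± 0.16, 1.69-fold, adjusted p = 0.0352) and Tnp2 (at least 1.75-fold, adjusted p = 0.035). Both calls were lost when only the V5 and GFP arrays were fitted (adjusted p = 0.0661 and 0.0584). They were also lost with the replicate number as a block (0.051 and 0.0513). Acr, Prm2 and A_51_P162984 of Prm1 lay between -0.11 and 0.09 in this comparison and did not pass.

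**Figure D3:**
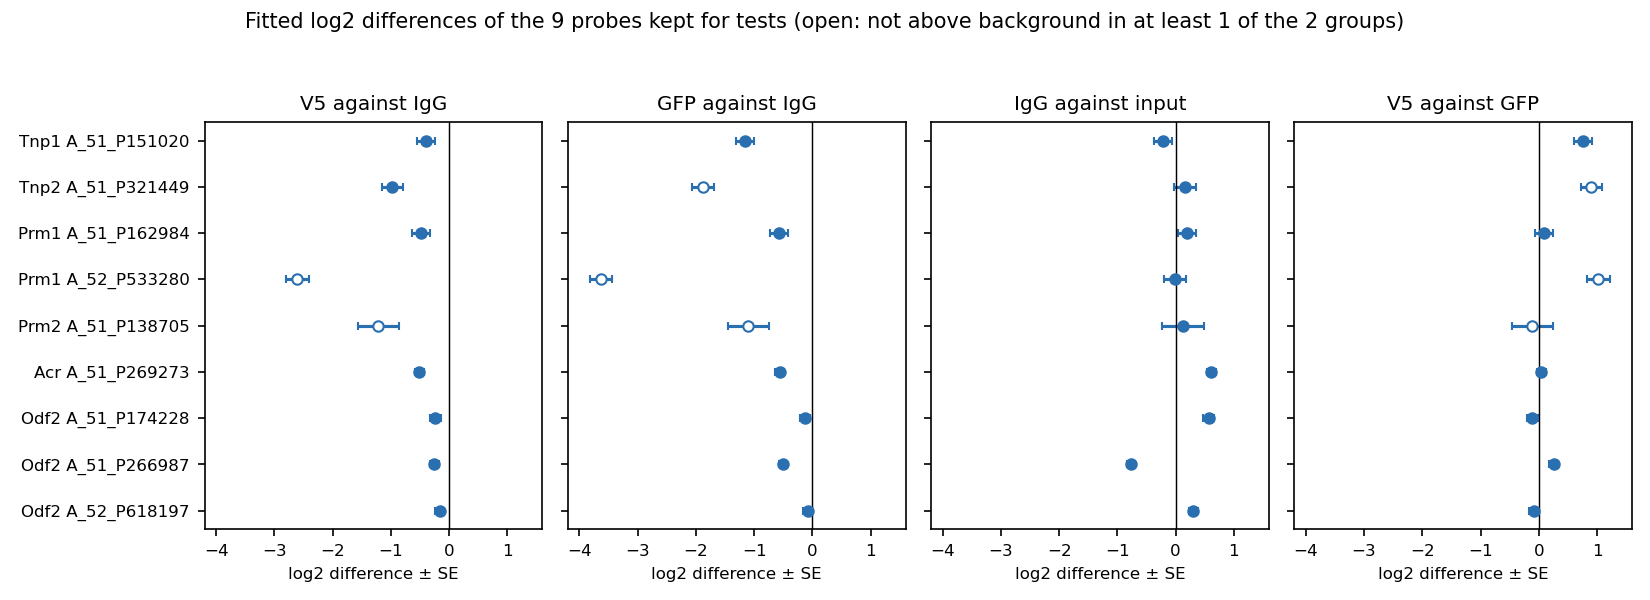
Log2 differences ± SE (limma, 2 arrays per group) of the 9 tested member probes in 4 comparisons; the probe standing for a gene comes from the fit over genes and the others from the fit over probes, and open points were not above background in at least 1 of the groups compared. Against IgG every point lies below 0. Open points are drawn at the fitted difference, which can be larger than the bound given in the text. For A_52_P533280 of Prm1 the bound is at least 4.52-fold lower in V5 and at least 4.2-fold lower in GFP. In V5 against GFP the open points of Prm2 and A_52_P533280 have no bound. Between IgG and input the packaging probes lie near 0.

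The other genes of these structures were listed by role. Of 9 other packaging genes on the array 8 were measured, and Hils1, a linker histone of spermatids, was above background nowhere. In V5 against IgG 1 was higher and 2 lower, where 16.7% and 40.4% of all genes were, with a median of -0.30, which became 0.06 under spike-in scaling. Brdt, a bromodomain protein of meiotic and haploid chromatin, was higher (0.52 ± 0.14, adjusted p = 0.0236), and the testis histones Hist1h1t (-0.36 ± 0.091, adjusted p = 0.0162) and Hist1h2aa (-0.39 ± 0.074, adjusted p = 0.00707) were lower. Prm3, which lies between Tnp2 and Prm2, lay at -1.16 ± 0.60 and did not pass (adjusted p = 0.138); it was chosen for its place after its values were seen. Its signal was 46.1 and 30.1 in input, 34.8 and 41.7 in IgG, 27.1 and 14.5 in V5, and 42.4 and 12.8 in GFP. Between IgG and input the remodeller Chd5 was higher in IgG (1.55 ± 0.12, adjusted p = 4.69e-05). The ubiquitin ligase Rnf8 (-0.85 ± 0.16), Hist1h2aa (-0.71 ± 0.074) and the histone Hist1h2ba (-0.50 ± 0.11) were lower there.

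Of 23 other acrosome genes on the array 17 were measured, and 5 were above background on no array, among them Spam1, the sperm hyaluronidase, and Izumo1, the sperm protein of gamete fusion. In V5 against IgG 1 was higher and 7 lower (median -0.11), where 40.4% of all genes were lower, so the list lay near the background. In GFP against IgG 1 was higher and 12 lower (median -0.40), where 52.1% of all genes were lower. Under spike-in scaling the counts became 6 higher and 0 lower, and 3 higher and 2 lower. Of all 17580 genes 7164 then passed in V5 against IgG, 6250 of them higher, and 9046 in GFP against IgG, 6844 of them higher. Gopc, a Golgi protein needed to form the acrosome, was higher in V5 (0.69 ± 0.15, adjusted p = 0.0103). Actl7b (-0.51 ± 0.092) and Adam3 (-0.37 ± 0.073), a surface protein of sperm, were lower, as was Actl7a (-1.07 ± 0.35), which was above background on 1 of the 2 V5 arrays. Between IgG and input 5 were higher and 11 lower, where 43.9% of all genes were higher and 29.3% lower. Adam5 was lower in IgG (-2.42 ± 0.11, adjusted p = 1.14e-05), with 1560.4 and 1569.9 in input against 288.9 and 226.2 in IgG, and so was Crisp2, a secreted protein of the acrosome and tail (-2.07 ± 0.20). Spaca4 (0.50 ± 0.12) and Acrbp, which binds proacrosin (0.49 ± 0.094), were higher in IgG.

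Of 36 other tail genes on the array 27 were measured, and 7 were above background on no array, among them Smcp of the mitochondrial sheath and the fibrous sheath protein Ropn1. In V5 against IgG 0 were higher and 16 lower (median -0.35), and in GFP against IgG 0 were higher and 21 lower (median -0.53), beside 40.4% and 52.1% of all genes lower. Under spike-in scaling the first comparison had 6 higher and 2 lower with a median of 0.01, and the second 2 higher and 4 lower with a median of -0.06. Of all 17580 genes 7164 then passed in the first, 6250 of them higher, and 9046 in the second, 6844 of them higher. Odf3, an outer dense fibre gene, read 256.3 and 287.8 in IgG against 139.8 and 122.0 in V5 (-1.28 ± 0.12, adjusted p = 0.00115). The kinase Tssk6 read 299.6 and 314.7 against 206.3 and 167.7 (-0.94 ± 0.13, adjusted p = 0.00319). Spag16, of the axoneme's central pair, was also lower (-0.20 ± 0.068). Between IgG and input 9 were higher and 10 lower, beside the same 43.9% and 29.3% of all genes. Odf4 was higher in IgG (1.30 ± 0.068, adjusted p = 1.38e-05), as was the kinase Tssk3 (1.32 ± 0.14), while Fsip2 of the fibrous sheath was lower (-2.89 ± 0.17). Spag17, also of the central pair, was at least 6.2-fold lower in IgG, where it was not well above background.

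All 18 measured factors that control transcription or storage of haploid messenger RNAs, of 20 on the array, were detected on both input arrays. CREM's own gene, Crem, read 1462.8 and 1503.5 in input, 632.3 and 482.0 in IgG, 739.3 and 760.2 in V5, and 704.4 and 727.5 in GFP. It did not pass in V5 against IgG (0.22 ± 0.11, adjusted p = 0.122) and was named for its link to the promoters. In V5 against IgG 7 factors were higher and 3 lower (median 0.15), where 16.7% of all genes were higher and 40.4% lower. Under spike-in scaling 12 factors were higher and 0 lower, where 7164 of all 17580 genes passed, 6250 of them higher. Paip2, a partner of poly(A)-binding protein that represses translation, read 28930.1 and 27256.0 in V5 against 12909.5 and 11005.6 in IgG (1.01 ± 0.10, adjusted p = 0.00143). The RNA-binding protein Khdrbs1 was also higher (0.88 ± 0.12, adjusted p = 0.00281). Ybx2, which binds stored germ cell messenger RNAs (-0.53 ± 0.092), and Tarbp2, which binds the protamine transcripts (-0.47 ± 0.087), were lower. Between IgG and input 5 factors were higher and 10 lower (43.9% and 29.3% of all genes), with Tarbp2 (1.22 ± 0.087) and Prkaca (0.92 ± 0.078) higher and Paip2 (-1.55 ± 0.10) lower. Papolb, a testis poly(A) polymerase, lay lower too (-1.93 ± 0.20), above background on 1 of the 2 IgG arrays.

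**Figure D4:**
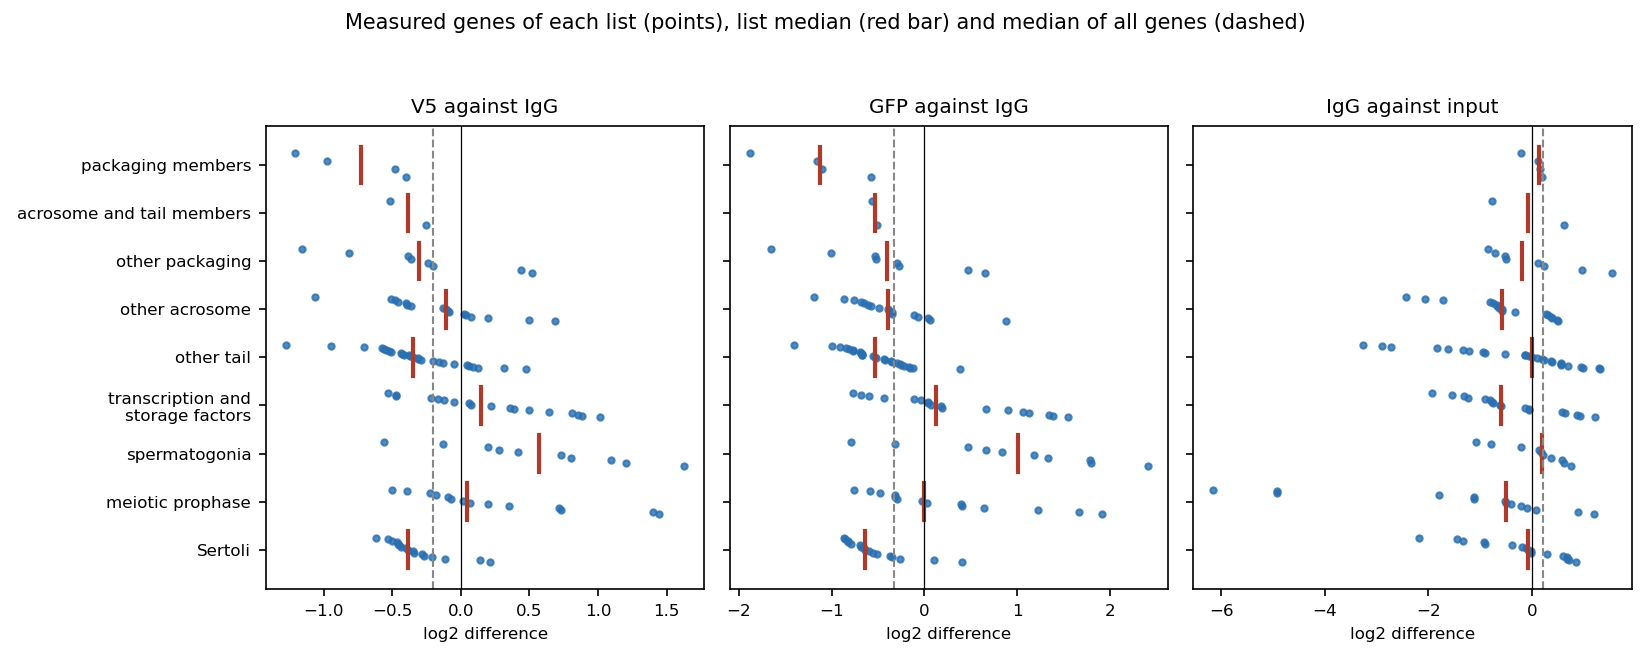
Log2 difference (75th percentile scaling) of each measured gene, as a point, by list for V5 against IgG, GFP against IgG and IgG against input; red bars are list medians and the dashed line is the median of all 17580 genes. Against IgG the packaging members have medians of -0.73 and -1.13, below those of the Sertoli list (-0.39 and -0.64), while the median of spermatogonial genes is 0.57 in V5 against IgG.

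Markers of other stages and cells moved in the same comparisons. In V5 against IgG 7 of 10 measured spermatogonial markers were higher, where 16.7% of all genes were, and 1 lower (median 0.57, and 0.94 under spike-in scaling). Dazl itself read 7238.7 and 6828.3 in V5 against 3646.5 and 2559.1 in IgG (0.98 ± 0.15, adjusted p = 0.00404), and the axial element gene Sycp3 was higher as well (1.45 ± 0.20, adjusted p = 0.00321). The helicase Ddx4 was higher too (0.46 ± 0.15, adjusted p = 0.0419). Against input, however, these genes were lower in V5 (Dazl -1.09 ± 0.15, Sycp3 -3.48 ± 0.20 and Ddx4 -1.15 ± 0.15). They were lower still in IgG than in input (-2.08 ± 0.15, -4.93 ± 0.20 and -1.61 ± 0.15 in the same order). The spermatocyte genes Piwil1 (0.06 ± 0.069) and Hspa2 (0.08 ± 0.11) did not pass in V5 against IgG. Of the 14 meiotic prophase markers 5 were higher and 4 lower, and of 13 measured spermatocyte markers 1 was higher and 3 lower.

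Markers of somatic cells were lower in V5 than in IgG, as the members were: 13 of 17 Sertoli, 6 of 7 Leydig, 7 of 7 myoid, 7 of 9 leukocyte, 5 of 6 endothelial and 2 of 3 erythroid markers, with 0 higher in each list. In that comparison 40.4% of all genes were lower. Under spike-in scaling 1 Sertoli marker was lower and 1 higher, and 0 of the other lists' markers passed. Of all 17580 genes 7164 then passed, 6250 of them higher. The summed signal of the Sertoli markers, in multiples of the array's 75th percentile, was 331.4 and 337.9 in input, 331.5 and 336.3 in IgG, 256.8 and 249.3 in V5, and 213.6 and 225.4 in GFP. That of the 4 packaging genes, with A_51_P162984 for Prm1, was 0.486 and 0.463 in input, 0.443 and 0.49 in IgG, 0.306 and 0.308 in V5, and 0.227 and 0.199 in GFP. Both sums, which weigh the brightest genes of a list most, had input and IgG close together, V5 lower and GFP lowest. Leydig markers also had close sums in input (27.07 and 26.44) and IgG (27.7 and 29.86). The myoid sum was lower in IgG (101.1 and 114.5) than in input (179 and 182.6), as were the leukocyte and erythroid sums. The endothelial sum was higher in IgG (2.608 and 3.063) than in input (1.927 and 1.838). Taken singly, 6 Sertoli markers were higher and 6 lower in IgG than in input. The part of these changes in the members' values was not tested.

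Across the 8 arrays, which share slides and scaling, the scaled log2 values of Tnp1 and Tnp2 correlated at Pearson r = 0.909, and Tnp2 with A_52_P533280 of Prm1 at 0.958. The tested genes with the pattern most like each member were Car5b (0.981), Rrm1 (0.98) and Dct (0.98) for Tnp1, and Tmem37 (0.987), Kctd19 (0.987) and Pnck (0.986) for Tnp2. For Prm1 they were Olfr609 (0.987), Cmar (0.985) and Tek (0.982), and for Prm2 Myct1 (0.976), Rgs4 (0.976) and Sprn (0.973). For Acr they were Glycam1 (0.996), Tulp3 (0.992) and Plvap (0.987), and for Odf2 Lrpap1 (0.999), Lzp-s (0.999) and Psme1 (0.999). None of these genes is another member.

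The authors' deposited table gives means for input, V5 and GFP after their own normalization to the median, with no IgG and no errors. In the authors' deposited table Tnp1 was 2.35, 1.86 and 1.1 in this order, and Tnp2 was 0.828, 0.575 and 0.314. Prm2 was 0.561, 0.312 and 0.349 in the authors' deposited table. Prm1 had 3 entries there, of which 1 went from 1.09 in input to 0.221 in V5 and 0.105 in GFP and another stayed at 0.65, 0.658 and 0.649. Acr was 6.08, 8.08 and 8.11 in the authors' deposited table, higher in V5 and GFP than in input. The scanner values put these groups at 0.10 and 0.05 from input on the log2 scale with the 75th percentile, and at 0.41 and 0.40 when scaled to the median, as the authors' table was. The entry of Odf2 for NM_013615 was 456, 270 and 229.6 in the authors' deposited table, and those for BC057001 were 17.7, 27.2 and 29.6, and 11.9, 16.1 and 17.3. There too the probes of Prm1 diverged and those of Odf2 went opposite ways.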

How the data were processed

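Total RNA and RNA from native precipitates was labelled with Cy3 and hybridised to Agilent arrays, per the labels' protocols. The deposited intensity values were written by Agilent's Feature Extraction software, version 9.1.3.1 per the file headers: background was subtracted, trends over the slide corrected and surrogates placed where a spot was not above background, with no scaling between arrays. The authors also deposited a table of signal values per group, which its comment lines describe as normalized to the median; 6 further columns of that table were not used. The genome build behind the probes is not given in the sources used here.

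Here processed signals were put on the log2 scale and centred on each array's 75th percentile over non-control spots. Spots of a probe were averaged, probes detected on both arrays of any group were kept (25597, after 32 with only flagged spots on an array were left out), and the brightest probe stood for a gene (17580). Group means over all 8 arrays were fitted with limma 3.58.1 in R 4.3.3 (4 residual and 2.41 prior degrees of freedom), for genes and again for every kept probe. Tests were two-sided, with p-values adjusted over all genes, or all probes, by Benjamini-Hochberg, at 0.05; every adjusted p is limma's. The number of arrays limits the precision. The procedure was tested on simulated data.

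The members and lists were chosen with earlier results of these data known. Named genes are all members, in each role list the up to 2 highest and 2 lowest calls of V5 against IgG and of IgG against input, Dazl, Ddx4, Sycp3, Piwil1 and Hspa2, and the 3 genes most like each member; Prm3, Crem and undetected list genes are exceptions. A gene that this rule names is not reported here. Alternatives covered scaling, background correction, filter, groups fitted, arrays left out, the replicate block and the authors' table. In the normexp and local background corrections 50 was added to every signal before the log2 step.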

Additional observations from a re-analysis of the deposited data

How the results depend on the processing

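Of the tested member values under alternatives, 600 kept direction and side of the threshold, 120 lost a call, 20 gained one, 19 turned with a call on at least 1 side and 33 changed sign with no call. From the authors' table, which allows no test, 7 values moved by less than the SE of the fit and 8 by more. Counts of genes called were 10033 for V5 against IgG, 12965 for GFP against IgG, 12878 for IgG against input, 12871 for V5 against input, 13229 for GFP against input and 2459 for V5 against GFP. With normexp background correction they were 0 (3688 at an unadjusted p under 0.05), 3219, 6272, 5250, 5697 and 0 (800 unadjusted); the cause was not tested. Plain subtraction of the local background, added after seeing the data, gave 3772 for V5 against GFP. V5 against IgG had 6420 with median scaling and 1249 without both arrays whose descriptions conflict. V5 against GFP had 4 with no filter on dim probes, 3869 with detection on all 8 arrays, 2 with only those groups fitted and 4 without both conflicting arrays. Leaving out 1 array gave 6035 to 10629 for V5 against IgG, 11341 to 12953 for GFP against IgG, 11363 to 12994 for IgG against input, 11112 to 11365 for V5 against input, 11590 to 12144 for GFP against input and 5 to 145 for V5 against GFP.

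The share of higher calls moved with scaling: in V5 against IgG 2938 of 10033 were higher, 4848 of 6420 with median scaling and 6250 of 7164 with spike-in scaling; in GFP against IgG 3804 of 12965, then 5416 of 10306 and 6844 of 9046. In IgG against input 7720 of 12878 were higher, and 2411 of 13328 with spike-in scaling.

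Same-numbered arrays did not deviate together (correlations of -0.075 to 0.107 over the 6 pairs of groups). This cannot tell whether they share a sample, since a shared effect may be small beside the noise, and the labels do not explain the replicate number. With it as a replicate block 794 genes were called in V5 against GFP.

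Values that turned under spike-in scaling were, for GFP against IgG, 0.35 and 0.39 for A_51_P174228 and A_52_P618197 of Odf2. For GFP against input they were -0.26 for Acr and -0.10 for A_52_P618197. For IgG against input they were -0.17 for Acr, -0.22 and -0.49 for A_51_P174228 and A_52_P618197, -0.59 for A_51_P162984 of Prm1 and -0.63 for Tnp2. For V5 against IgG it was 0.11 for A_51_P266987 of Odf2, and for V5 against input -0.33 for Acr, -0.092 for A_51_P174228 and -0.29 for A_52_P618197. Under median scaling A_51_P266987 turned to 0.0079 in V5 against IgG. Under normexp the values turned were 0.39 for Prm2 and 0.16 for Tnp2 in GFP against input, 0.50 and 0.45 in V5 against input, and 0.0081 for A_51_P162984 in V5 against IgG. Scaling constants differ by construction; no other cause was tested. Signal over background limits Tnp2, Prm1 and Prm2, which lie near the detection limit.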
